A study of Mus musculus with 16 samples.

Results

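The cytosolic ribosomal protein genes encode the proteins that, with ribosomal RNA, build the 40S and 60S subunits of the ribosome outside mitochondria. They were described in RNA of mouse esophagus. They were taken as the protein-coding genes with an Rpl or Rps symbol of the standard form or named Rpsa, Rplp0, Rplp1 or Rplp2, with a deposited value of 5 or more in 4 or more of the 16 libraries, so that they were selected on their level. The group was also proposed with the OXA contrasts of these data in view, so its counts below describe it and are no independent evidence. The symbol and biotype pattern found 83 genes, and 78 passed the level threshold, out of 41411 genes in all. Of the 78 members, 47 belonged to the large subunit (the stalk proteins included) and 31 to the small subunit.

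All mice were C57BL/6, and each library came from RNA of the esophagus. Of the libraries, 4 came from wild-type mice given OXA (WT OXA) and 4 from wild-type mice given vehicle (WT vehicle). Another 4 came from Il13ra1-/- mice given OXA (KO OXA) and 4 from Il13ra1-/- mice given vehicle (KO vehicle). OXA is an oxazolone (the 4-ethoxymethylene-2-phenyl compound), a hapten used to provoke an allergic, eosinophil-rich inflammation of the esophagus as a model of eosinophilic esophagitis. Il13ra1 encodes a chain of the type II IL-4 receptor, through which IL-13 acts, and the design set the OXA effect in mice with the gene beside that in mice lacking it. The age and sex of the mice, the deleted part of Il13ra1 and any batch were not given in the labels, and nothing said whether the 4 libraries of a group were separate animals beyond letter-and-digit codes in their titles, so that p-values measure the spread between these libraries.

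Ribosomal proteins are needed in nearly equal numbers per ribosome, and most are required for the subunit they belong to. Their mRNAs usually begin with a C followed by a run of pyrimidines, the 5′ terminal oligopyrimidine (TOP) motif, through which mTOR signalling controls their translation as a group. In stratified epithelium, as in other tissues, cells that divide make many ribosomes. In whole tissue, a fall can mean fewer cells of a type that is rich in an mRNA or less of that mRNA per cell, which could not be told apart here.

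CEL-Seq reads are tags from the 3′ ends of transcripts, and the deposited values are reads per gene after division by a library-wide size factor, so they were compared between libraries and not between genes. Depth, as reads recovered from those values, was 23.3 ± 3.61 M reads in WT OXA, 7.64 ± 1.70 M in WT vehicle, 11.6 ± 2.70 M in KO OXA and 12.9 ± 3.63 M in KO vehicle (SD, n = 4 each). The 4 WT OXA libraries, at 20.2 to 27.3 M, were all deeper than the other 12, at 5.61 to 16.5 M. The share of mitochondrial rRNA was 0.453% ± 0.00627 in WT OXA, 1.34% ± 0.269 in WT vehicle, 0.776% ± 0.273 in KO OXA and 1.14% ± 0.432 in KO vehicle (SD, n = 4 each). Il13ra1 itself had values of 44, 174, 68.1 and 110 in KO OXA libraries, against 584, 673, 752 and 874 in WT OXA libraries, and of 31.2, 64.7, 48.7 and 55.8 in KO vehicle libraries, against 207, 226, 197 and 134 in WT vehicle libraries. The KO libraries lay below the WT libraries under both treatments but not at 0, and since the deleted part was not given, reads in KO libraries could not be assigned to it.

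Of the 5 genes below the level threshold, Rpl10l, Rpl24 and Rpl13 had 0 reads in all 16 libraries, Rps10 had 2 and Rpl39l had 7. Rpl24, Rpl13 and Rps10 encode core proteins of the ribosome, and their values were recorded only as listed at or near 0. Each is overlapped on the same strand by another annotated gene in GENCODE M21: Rps10 by RPS10-NUDT3 (values of 0 to 7.88), Rpl24 by Gm28037 (0 to 4.76) and Rpl13 by Gm20388 (385 to 926.5). Just inside the threshold were Rpl7l1, whose fourth-highest value was 382.31, and Rpl3l, at 481.5, and just outside it Rpl39l, at 0.97. The next member above them was Rpl13a, at 1087.3, so no member lay near the threshold. In GENCODE M21, 23 of the 78 overlapped another annotated gene, with small RNAs left out, and 2 of them (Rpl13a and Rpl19) did so on the same strand, and the table held 8 pseudogenes named after a member, among whose copies reads could be split.

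**Figure D1:**
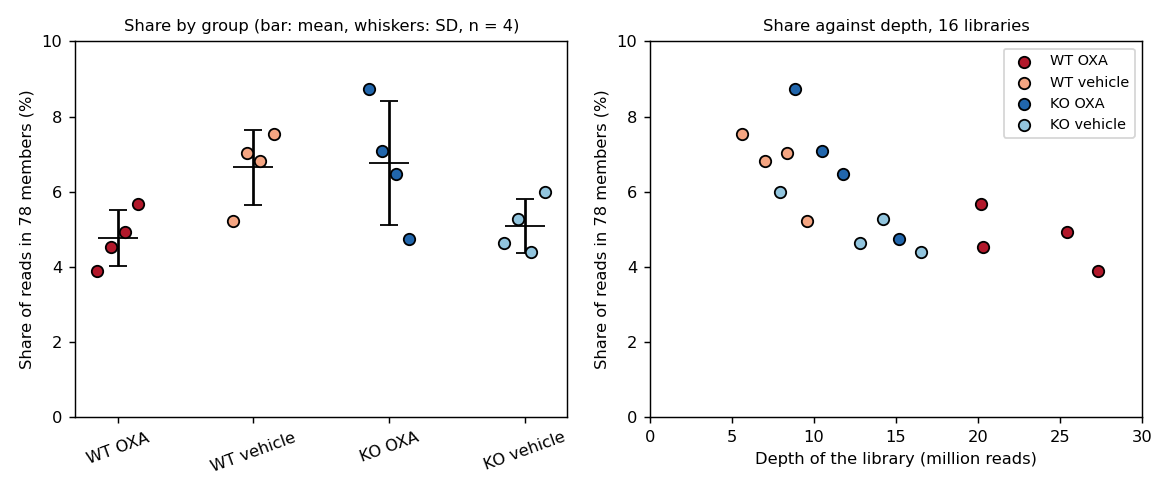
Share of all recovered reads that fell in the 78 members (y axes, percent). On the left are the 4 groups (points, libraries; bar and whiskers, mean and SD, n = 4), and on the right the share is plotted against the depth of the library (x axis, M reads). The share was 4.76% ± 0.745 in WT OXA against 6.65% ± 0.999 in WT vehicle, and 6.76% ± 1.65 in KO OXA against 5.08% ± 0.719 in KO vehicle. Within each group the shallowest library has the highest share and the deepest the lowest.

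As a whole, the members took less of the RNA in OXA-treated WT esophagus and more of it in OXA-treated KO esophagus than under vehicle. Their share of all reads was 3.895%, 4.534%, 4.936% and 5.674% in WT OXA libraries, against 5.215%, 7.019%, 6.831% and 7.524% in WT vehicle libraries. In KO OXA libraries it was 8.725%, 7.095%, 6.485% and 4.734%, against 4.626%, 5.27%, 4.409% and 6.006% in KO vehicle libraries. The WT groups overlapped in 1 library of each, since the highest WT OXA share was above the lowest WT vehicle share, and the KO groups overlapped through the lowest KO OXA library. These shares were not tested, because the members were chosen with results known.

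The share also moved with depth. In each of the 4 groups the shallowest library had the highest share and the deepest library the lowest. Most members went together in this. Of the 78, 75 had their highest WT OXA value in replicate 4 and 42 their highest WT vehicle value in replicate 4. In KO OXA 74 had their highest value in replicate 1, and in KO vehicle 73 in replicate 4. These were the shallowest libraries of their groups. In the same order, they held the highest group value of 31.5%, 29.9%, 30.3% and 30.5% of all tested genes. The deepest held the lowest value of 74 members in WT OXA (replicate 1), 71 in WT vehicle (replicate 1) and 68 in KO OXA (replicate 4). Of all tested genes 28.1%, 20.8% and 23.2% had their lowest group value there. In KO vehicle the lowest values were divided between replicate 3, the deepest, with 39 and replicate 1 with 34. For all tested genes these were 23.9% and 25.4%. Among libraries of like depth, the share was 8.725% at 8.82 M reads in KO OXA against 6.006% at 7.91 M in KO vehicle, and 6.485% at 11.8 M in KO OXA against 4.626% at 12.8 M in KO vehicle, but 4.734% at 15.2 M in KO OXA against 5.27% at 14.2 M in KO vehicle. No WT pair of like depth could be formed, since the shallowest WT OXA library had 20.2 M reads and the deepest WT vehicle library 9.55 M.

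In WT mice, OXA was accompanied by lower values for most ribosomal protein genes. Of the 78, 52 fell and 1 rose at an adjusted p under 0.05 (limma on log2(value + 1), over 16748 tested genes, as in all tests named below unless stated). Among all tested genes 16% were called lower and 18% higher. With libraries scaled to equal totals, 36 members were lower and 3 higher, where 8.93% of all tested genes were lower and 30.5% higher. The median log2 fold change was -0.78 over the members, from -1.96 to 0.51, and 0.099 over all tested genes. In the large subunit 30 of 47 fell and 1 rose, with a median of -0.81, and in the small subunit 22 of 31 fell and 0 rose, with a median of -0.76. All 4 WT OXA values lay below all 4 WT vehicle values for 48 members, and above them for 0. Over all tested genes this was so for 15.7% and 18.5%.

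**Figure D2:**
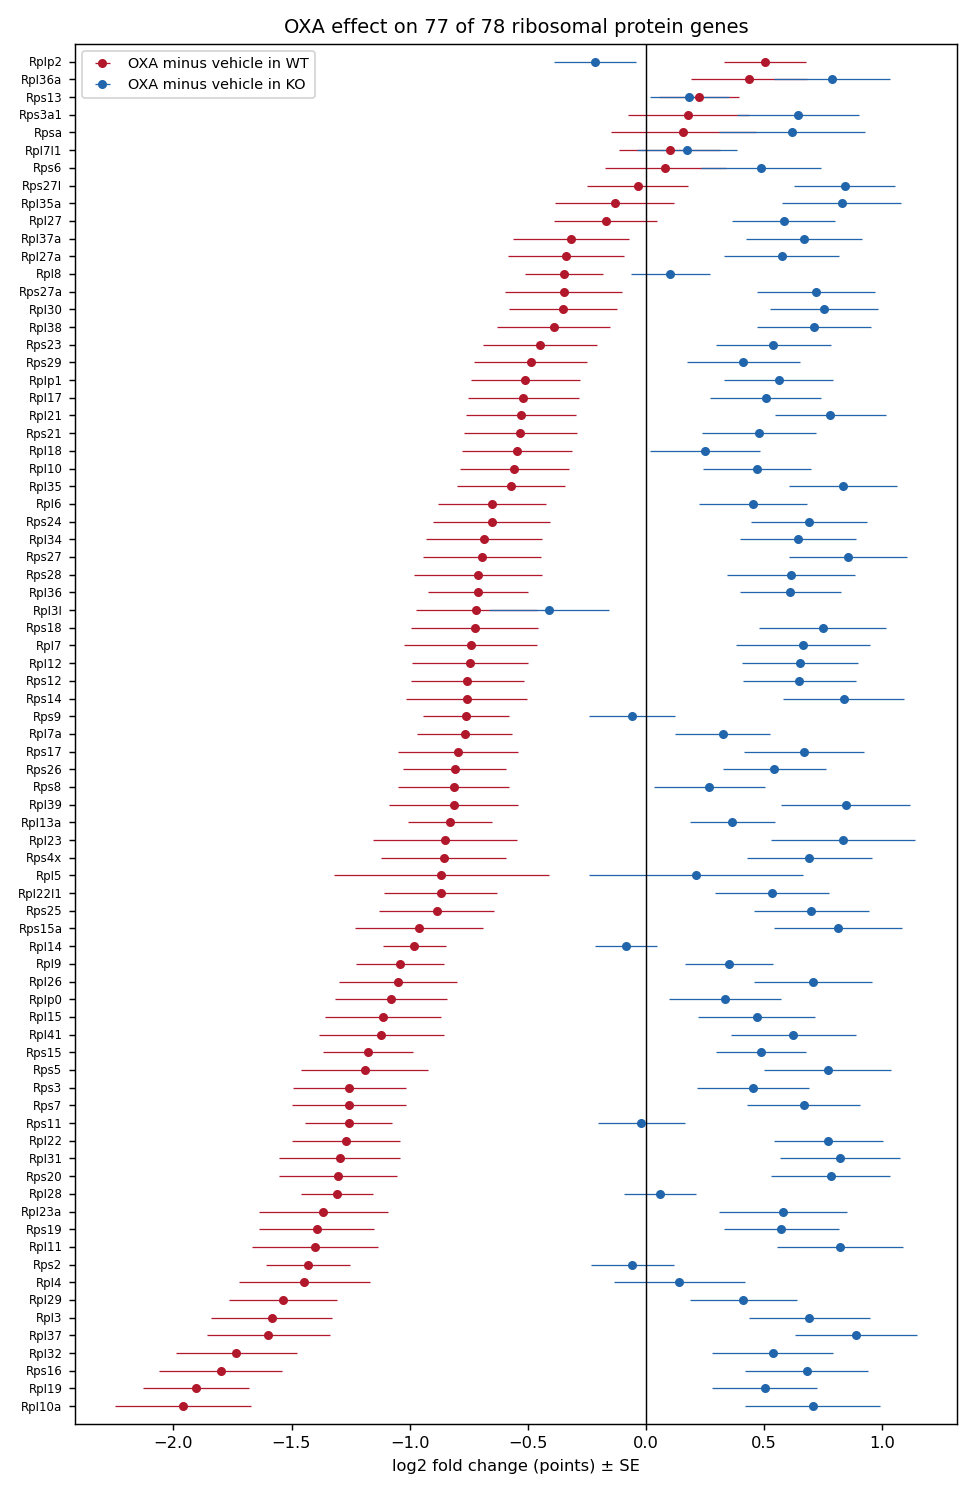
Log2 fold change (x axis, ± SE) of 77 of the 78 members (y axis, by symbol) for OXA minus vehicle in WT (red) and in KO (blue), ordered by the WT value. The WT values run from 0.51 for Rplp2 to -1.96 for Rpl10a, while most KO values are above 0.

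The largest falls were in Rpl10a, a protein of the L1 stalk at the tRNA exit side, in Rpl19, which takes part in a bridge between the subunits, and in Rps16, whose tail reaches the peptidyl-tRNA. Rpl10a had 3537, 4299, 3384 and 5454 in WT OXA libraries, against 13835, 18945, 15808 and 15531 in WT vehicle libraries. The 4 WT OXA libraries lay well below the others, with no overlap (log2 fold change -1.96 ± 0.29, adjusted p = 3.65e-05). Rpl19 had 2702, 3286, 2868 and 3625 in WT OXA libraries, against 10046, 12494, 11358 and 12718 in WT vehicle libraries. Here too the groups stood apart (log2 fold change -1.90 ± 0.22, adjusted p = 3.08e-06). Rps16 had 2366, 3324, 3391 and 4027 in WT OXA libraries, against 9331, 12137, 11108 and 12567 in WT vehicle libraries. These were likewise apart (log2 fold change -1.80 ± 0.26, adjusted p = 3.25e-05). The 3 smallest p-values among members were those of Rpl28, Rpl19 and Rps2, in which the libraries of a group were close to each other. Rpl28 had 1791, 2037, 1867 and 2052 in WT OXA libraries, against 4474, 4977, 4373 and 5400 in WT vehicle libraries. The spread within WT OXA was small, at 1937 ± 128 against 4806 ± 476 in WT vehicle (SD, n = 4 each), and the log2 fold change was -1.31 ± 0.15 (adjusted p = 2.84e-06). Rps2, which lines the channel where mRNA enters the small subunit, averaged 7971 ± 1025 in WT OXA and 21488 ± 2857 in WT vehicle (SD, n = 4 each; log2 fold change -1.43 ± 0.18, adjusted p = 5.31e-06).

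**Figure D3:**
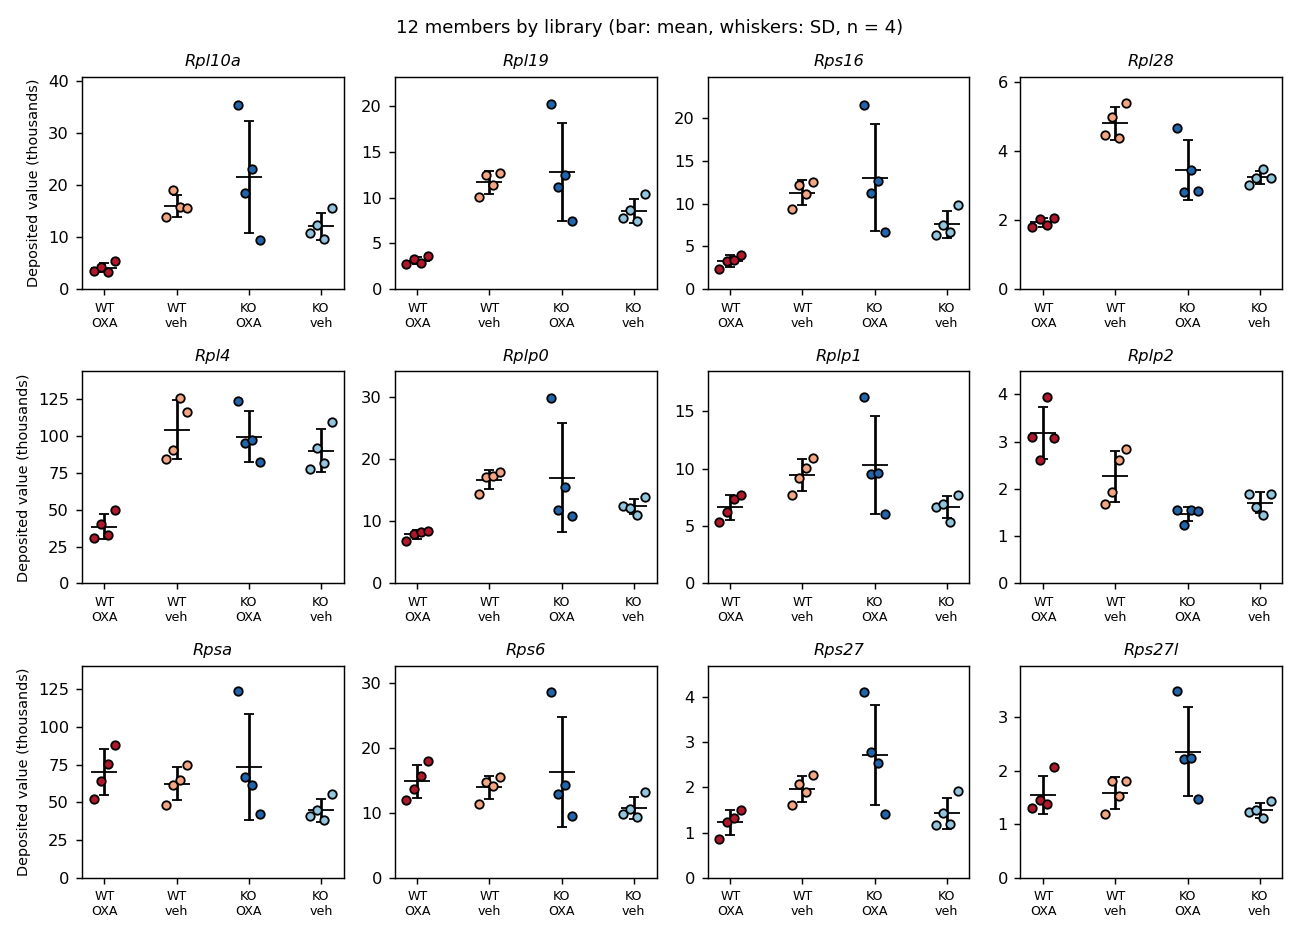
Deposited values (y axes, divided by 1000) of 12 members in each library of the 4 groups (points; bar and whiskers, mean and SD, n = 4). Rpl10a, Rpl19, Rps16, Rpl28 and Rpl4 are low in all 4 WT OXA libraries, Rplp2 is higher there, Rpsa and Rps6 overlap between the WT groups, and replicate 1 of KO OXA is the highest KO OXA library in each panel but that of Rplp2.

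The stalk proteins, which recruit elongation factors to the ribosome, did not move alike. Rplp0, the base of the stalk, averaged 7886 ± 717 in WT OXA and 16665 ± 1534 in WT vehicle (SD, n = 4 each; log2 fold change -1.08 ± 0.24, adjusted p = 0.0016). Rplp1 had 5324, 6210, 7342 and 7693 in WT OXA libraries, against 7672, 9147, 10025 and 10902 in WT vehicle libraries. The ranges overlapped by 1 library of each group, and the difference did not pass the test (log2 fold change -0.51 ± 0.23, adjusted p = 0.0948). Rplp2, which pairs with Rplp1 on the stalk, was the 1 member that rose. Rplp2 had 3097, 2604, 3944 and 3082 in WT OXA libraries, against 1678, 1942, 2607 and 2837 in WT vehicle libraries. The highest WT vehicle libraries lay within the WT OXA range (log2 fold change 0.51 ± 0.17, adjusted p = 0.0289). This call did not hold without any 1 of WT OXA replicates 1, 3 and 4 or WT vehicle replicates 1 and 2, with adjusted p-values of 0.051 to 0.113.

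Several members did not pass the test in WT and had a fold change above 0. Rpsa, a 40S protein also known as the laminin receptor, had 52205, 64372, 75650 and 87936 in WT OXA libraries, against 47942, 61550, 64936 and 74827 in WT vehicle libraries. The groups overlapped throughout (log2 fold change 0.16 ± 0.31, adjusted p = 0.728). Rps6 had 11951, 13747, 15722 and 17951 in WT OXA libraries, against 11383, 14733, 14110 and 15544 in WT vehicle libraries. Rps6, the substrate of the S6 kinases, overlapped as well (log2 fold change 0.084 ± 0.26, adjusted p = 0.832). Rps13 had a log2 fold change of 0.23 ± 0.17 (adjusted p = 0.321). Of the large subunit, Rpl36a averaged 3640 ± 696 in WT OXA and 2713 ± 635 in WT vehicle (SD, n = 4 each; log2 fold change 0.44 ± 0.25, adjusted p = 0.179). Rpl36a and Rps13 were called higher in WT OXA with libraries scaled to equal totals (limma, adjusted p = 0.00958 and 0.0037). With quantile normalization Rpl36a, Rps13 and Rps6 were called higher (limma, adjusted p = 0.014, 0.00128 and 0.00874). In all, 25 members did not pass the test in WT, 19 of them with a fold change below 0.

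Among members with a role outside the ribosome, Rpl5 and Rpl11 form with 5S rRNA the particle that can bind MDM2, the inhibitor of p53. Rpl11 had 2341, 2707, 2734 and 3812 in WT OXA libraries, against 6802, 8349, 6776 and 8319 in WT vehicle libraries. It fell without overlap (log2 fold change -1.40 ± 0.27, adjusted p = 0.000516). Rpl5 had 6430, 20650, 22227 and 28725 in WT OXA libraries, against 12754, 45401, 41843 and 38628 in WT vehicle libraries. Replicate 1 was far below the other 3 in both groups, and Rpl5 did not pass the test (log2 fold change -0.87 ± 0.46, adjusted p = 0.151). Rpl13a, which can leave the ribosome to silence inflammatory mRNAs in myeloid cells, averaged 591 ± 116 in WT OXA and 1055 ± 235 in WT vehicle (SD, n = 4 each; log2 fold change -0.83 ± 0.18, adjusted p = 0.00134). Rps27a, made as a fusion with ubiquitin, did not pass (log2 fold change -0.35 ± 0.25, adjusted p = 0.302). Rps4x, on the X chromosome with 3 other members, fell (log2 fold change -0.85 ± 0.26, adjusted p = 0.0172), but did not pass without WT OXA replicate 1 (adjusted p = 0.0592).

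RefSeq promoter windows (GRCm38.p6) were matched for 58 of the 78 members, and the promoters of 1 chromosome were not used here. Runs of 8 or more pyrimidines that begin with C were searched within 50 bases of the annotated start, read along the transcript. They were found in 49 of the 58 (84.5%), and in 32.6% of the tested genes with a promoter. Over the whole 300-base window and both strands, the ETS core CCGGAAGT was in 20.7% of member promoters and 7.68% of those of tested genes, and the YY1 motif GCCATNTT in 20.7% and 8.73%. The E-box CACGTG was in 10.3% and 10.7%, TATAAA in 12.1% and 10.1% and the SP1 core GGGCGG in 62.1% and 62.8%. The following windows run from 60 bases before to 20 bases after the annotated start, 5′ to 3′ along the transcript. They show members that fell (Rpl28, Rpl4, Rps27), with the member of the largest fall (Rpl10a). Beside them are members that rose or did not pass (Rplp2, Rps6, Rps27l). Capitals mark the longest run of at least 5 pyrimidines that begins with C and lies no further than 25 bases before the annotated start. Where runs were equally long, as in Rps27l (9 bases), the first was marked.
Rpl28 (chr7:4792905-4792984, plus strand): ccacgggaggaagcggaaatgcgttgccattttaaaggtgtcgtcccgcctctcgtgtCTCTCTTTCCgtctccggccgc
Rpl4 (chr9:64173327-64173406, plus strand): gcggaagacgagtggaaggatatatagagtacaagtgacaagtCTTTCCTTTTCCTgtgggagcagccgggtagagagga
Rps27 (chr3:90213629-90213708, minus strand): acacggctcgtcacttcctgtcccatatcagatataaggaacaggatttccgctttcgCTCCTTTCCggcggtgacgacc
Rplp2 (chr7:141447591-141447670, plus strand): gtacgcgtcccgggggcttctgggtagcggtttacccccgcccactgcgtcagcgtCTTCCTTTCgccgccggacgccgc
Rps6 (chr4:86857348-86857427, minus strand): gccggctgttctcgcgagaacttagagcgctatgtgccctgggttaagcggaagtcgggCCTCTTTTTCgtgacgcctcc
Rps27l (chr9:66946026-66946105, plus strand): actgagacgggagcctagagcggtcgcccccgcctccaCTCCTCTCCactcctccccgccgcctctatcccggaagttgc
Rpl10a (chr17:28328505-28328584, plus strand): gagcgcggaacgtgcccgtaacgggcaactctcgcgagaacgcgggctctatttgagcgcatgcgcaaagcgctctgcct
The run was 10 bases long in Rpl28 and 9 in Rps27, which fell, and 9 in Rplp2 and 10 in Rps6, which did not, and in these 4 it covered the annotated start. In Rpl4 (13 bases) and Rps27l (9 bases) the run ended before it, and Rpl10a held no such run there. In windows not printed, the run was 5 bases long in Rpl19 and Rps16 and 8 in Rpl22l1, which fell. None was found in Rpl22, which fell, or in Rpsa, which did not. The windows are picked examples, and run length was not tested against the fold change. A match describes the letters only and is not a mapped start site or a bound factor.

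Depth moved with this comparison, so a fit with log2 depth as a covariate was added after seeing the data. With it 0 members were lower and 1 was higher in WT OXA, while 2.09% of all tested genes were called lower and 1.79% higher. The median log2 fold change of the members was 0.49 in that fit, so the direction turned. Rpl10a had a log2 fold change of -0.49 (adjusted p = 0.638), Rpl19 of -0.72 (adjusted p = 0.309) and Rpl28 of -0.91 (adjusted p = 0.109). The member called higher was Rpl36a (1.85, adjusted p = 0.0107), and Rplp2 did not pass (0.97, adjusted p = 0.134). The slope on depth was below 0 for 77 of the 78 members, with a median of -0.77 on the log2 scale per doubling of depth, and Rpl3l was the exception. Of these slopes 71 had an unadjusted p under 0.05 and 0 passed the adjusted threshold by limma. Of all tested genes 42.8% had a slope below 0, and 13.4% (2238) had a slope in either direction with an unadjusted p under 0.05. The mean log2 depth was 1.62 higher in WT OXA than in WT vehicle, with no shared range, so in WT the OXA effect and depth cannot be told apart.

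**Figure D4:**
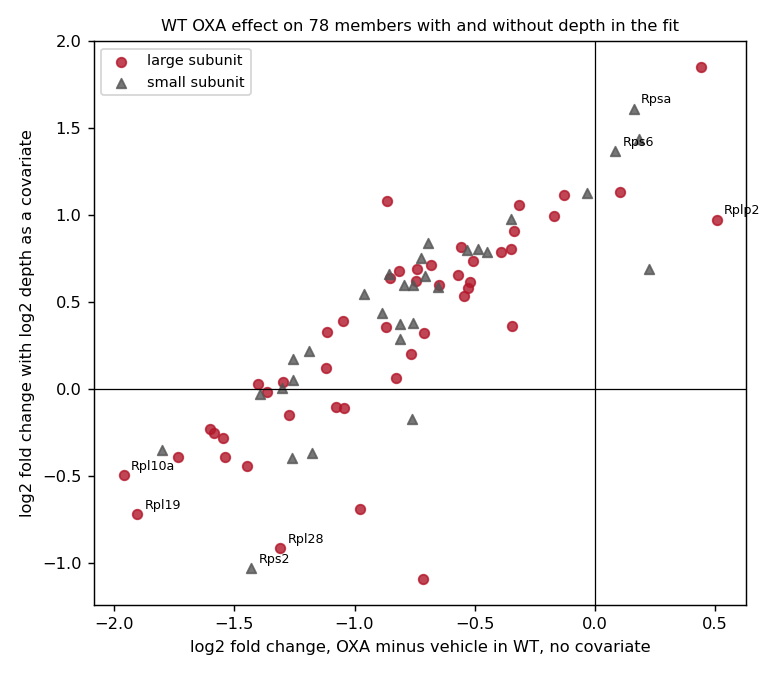
Log2 fold change of OXA minus vehicle in WT for the 78 members, without a covariate (x axis) and with log2 depth as a covariate (y axis), by subunit (circles, large; triangles, small). The medians were -0.78 without and 0.49 with depth in the fit; Rpl28, Rps2 and Rpl19 stayed below 0 in both and Rplp2, Rpsa and Rps6 above 0 in both.

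Across the 78 members the WT fold change had a Pearson r of 0.107 and a Spearman rho of 0.129 with the slope on depth, -0.0661 and -0.0117 with the KO fold change, and -0.252 and -0.276 with the mean log2 level. The KO fold change had a Pearson r of -0.779 and a Spearman rho of -0.61 with the slope on depth. These are descriptions over 78 genes of the same libraries, which share depth and scaling, and carry no test. The slopes come from the fit with log2 depth and the KO fold changes from the fit without it, and both fits share those libraries.

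Ratios between members within a library do not depend on its size factor. They can still move with depth, and no ratio was tested with depth in the fit. The summed value of the 47 large-subunit members over that of the 31 small-subunit members was 0.968, 1.05, 0.94 and 1.06 in WT OXA libraries, against 1.38, 1.43, 1.46 and 1.34 in WT vehicle libraries. It was 1.37, 1.42, 1.51 and 1.48 in KO OXA libraries, against 1.45, 1.49, 1.41 and 1.5 in KO vehicle libraries. The 4 WT OXA libraries lay below the other 12, which overlapped. Without Rpl4, a protein of the exit tunnel wall, and Rpsa the ratio averaged 1.19 ± 0.073 in WT OXA, 1.34 ± 0.060 in WT vehicle, 1.44 ± 0.056 in KO OXA and 1.35 ± 0.057 in KO vehicle (SD, n = 4 each). Rpl4 had 31085, 40073, 32674 and 49748 in WT OXA libraries, against 84346, 90478, 125750 and 115790 in WT vehicle libraries. Rpl4, named here after its values were seen, fell without overlap (log2 fold change -1.45 ± 0.28, adjusted p = 0.000514), while Rpsa did not.

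**Figure D5:**
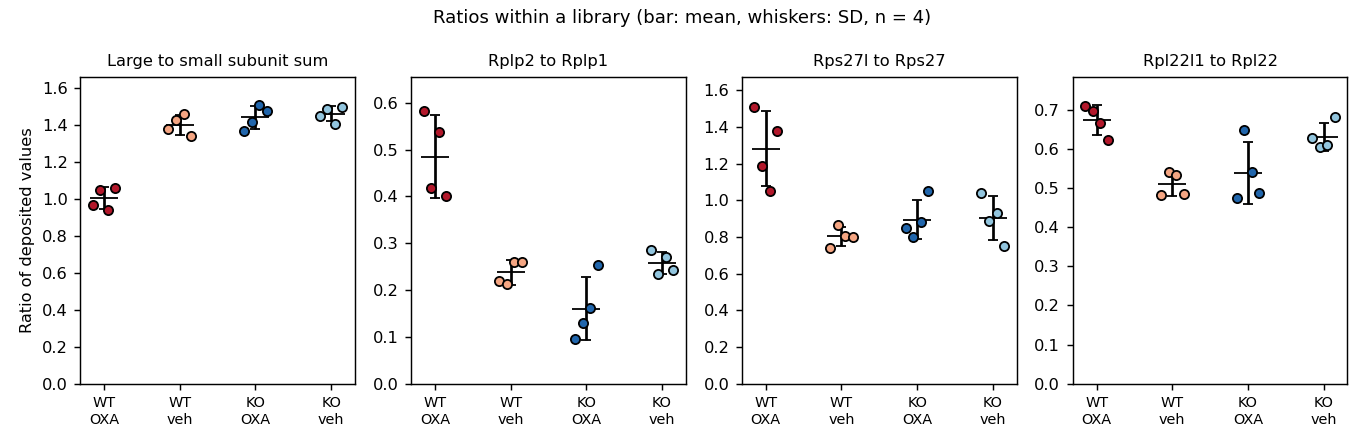
Ratios of deposited values within a library (y axes) in the 4 groups (points, libraries; bar and whiskers, mean and SD, n = 4). WT OXA lies apart from WT vehicle in each panel, at 1.01 ± 0.062 for the large to small subunit sum, 0.485 ± 0.089 for Rplp2 to Rplp1 and 0.674 ± 0.038 for Rpl22l1 to Rpl22, against 1.40 ± 0.054, 0.238 ± 0.026 and 0.511 ± 0.031 in WT vehicle. In the panel of Rpl22l1 to Rpl22 the WT OXA libraries overlap both KO groups.

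Several members have a paralog that can take their place in the ribosome. Rpl22l1 stands beside Rpl22, and the ratio of the paralog to Rpl22 was 0.71, 0.697, 0.667 and 0.624 in WT OXA libraries, against 0.483, 0.541, 0.533 and 0.485 in WT vehicle libraries. The groups did not overlap (exact permutation test over 70 assignments, two-sided, p = 0.0286, the smallest it can give; Benjamini-Hochberg adjusted over 10 ratio tests, 0.0715). In KO it was 0.475, 0.649, 0.542 and 0.487 in OXA libraries, against 0.629, 0.604, 0.61 and 0.682 in vehicle libraries, with overlap (exact permutation p = 0.114). Both paralogs fell in WT, Rpl22 by more (log2 fold change -1.27 ± 0.23, adjusted p = 0.000299) than Rpl22l1 (log2 fold change -0.87 ± 0.24, adjusted p = 0.00879).

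Rps27l, a paralog of Rps27 known as a p53 target, had a ratio to Rps27 of 1.51, 1.19, 1.05 and 1.38 in WT OXA libraries, against 0.741, 0.867, 0.808 and 0.802 in WT vehicle libraries. The ranges were apart (exact permutation p = 0.0286, adjusted 0.0715), and in KO the means were 0.895 ± 0.11 in OXA and 0.903 ± 0.12 in vehicle libraries (SD, n = 4 each; exact permutation p = 0.943). The value of Rps27 fell in WT (log2 fold change -0.69 ± 0.25, adjusted p = 0.0381), a call lost by edgeR (adjusted p = 0.0512) and by limma without any 1 of WT OXA replicates 1, 2 and 3 and WT vehicle replicates 2, 3 and 4 (adjusted p = 0.056 to 0.131). Rps27l had a log2 fold change of -0.034 (adjusted p = 0.921). Rplp2 to Rplp1 was 0.582, 0.419, 0.537 and 0.401 in WT OXA libraries, against 0.219, 0.212, 0.26 and 0.26 in WT vehicle libraries, again apart (exact permutation p = 0.0286, adjusted 0.0715). In KO it was 0.0957, 0.13, 0.162 and 0.254 in OXA libraries, against 0.285, 0.234, 0.271 and 0.244 in vehicle libraries, and 1 overlapping library (exact permutation p = 0.0857, adjusted 0.143). The ratio of Rplp2 to Rplp1 rose with depth across the libraries of WT OXA and of KO OXA, but not in WT vehicle or KO vehicle. The slope on log2 depth was -0.29 for Rplp2 and -0.77 for Rplp1, and the part of depth in this ratio was not tested. No ratio test passed the adjusted threshold, and with 4 libraries against 4 the smallest p is 0.0286.

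Rpl7l1, which acts in the assembly of the large subunit, had a ratio to Rpl7 of 0.0392 ± 0.0074 in WT OXA and 0.0218 ± 0.0044 in WT vehicle (SD, n = 4 each; exact permutation p = 0.0286, adjusted 0.0715), and of 0.0201 ± 0.0098 in KO OXA and 0.026 ± 0.0024 in KO vehicle (SD, n = 4 each; exact permutation p = 0.229). Rpl7 itself fell in WT (log2 fold change -0.74 ± 0.28, adjusted p = 0.0488), a call lost by edgeR (adjusted p = 0.0529) and by limma without any 1 of 11 libraries, WT OXA replicates 1, 2 and 3, WT vehicle replicates 2, 3 and 4, KO OXA replicate 3 and each KO vehicle library (adjusted p = 0.0505 to 0.13). Rpl7l1 had a log2 fold change of 0.10 (adjusted p = 0.748). Rpl3, which lies near the peptidyl transferase centre, averaged 4425 ± 973 in WT OXA and 13112 ± 1640 in WT vehicle (SD, n = 4 each; log2 fold change -1.58 ± 0.26, adjusted p = 0.000101). Rpl3l takes its place in striated muscle, and the ratio of Rpl3l to Rpl3 was 0.0665 ± 0.036 in WT OXA and 0.0346 ± 0.012 in WT vehicle (SD, n = 4 each; exact permutation p = 0.171), and 0.0251 ± 0.013 in KO OXA and 0.0487 ± 0.0096 in KO vehicle (SD, n = 4 each; exact permutation p = 0.0571, adjusted 0.114). Rpl3l had 405, 268, 235 and 174 in WT OXA libraries, against 508, 235, 474 and 577 in WT vehicle libraries, with overlap (log2 fold change -0.72 ± 0.26, adjusted p = 0.0357). This call was lost without any 1 of WT OXA replicates 2, 3 and 4 and WT vehicle replicates 1, 3 and 4 (adjusted p = 0.0586 to 0.136). Skeletal muscle markers, of which 4 of 10 were called lower and 0 higher in WT OXA, had summed values of 123300 to 230770 in WT OXA and 198880 to 351880 in WT vehicle. Of all tested genes 16% were called lower and 18% higher there. The part of these markers in the fall of Rpl3l was not tested. Rpl39l and Rpl10l, testis paralogs of Rpl39 and Rpl10, were below the level threshold. Rpl39, at the exit tunnel, fell in WT (log2 fold change -0.81 ± 0.27, adjusted p = 0.0271), a call lost without any 1 of WT OXA replicates 1, 2 and 3 and WT vehicle replicates 2 and 4 (adjusted p = 0.0534 to 0.0821). Rpl10 did not pass (log2 fold change -0.56 ± 0.23, adjusted p = 0.0684).

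In KO mice the members tended higher under OXA, with 1 passing the test. The median log2 fold change was 0.61, from -0.41 to 0.89, against -0.015 over all tested genes, and 72 of 78 members were above 0. By limma 1 member was called higher and 0 lower, where 1.81% of all tested genes were called higher and 0.0896% lower. Before adjustment 51 members lay above 0 with p below 0.05 and 0 lay below it, where 9.44% and 4.78% of all tested genes did so. By edgeR 3 were higher (Rps27l, Rpl35 and Rpl37), against 2.23% of all tested genes, and by DESeq2 27, against 3.92%. The 4 KO OXA values were above the 4 KO vehicle values for 1 member and below them for 0, where 3.93% and 2.94% of all tested genes were so. With log2 depth in the fit, 3 members (Rps27l, Rps27 and Rpl35) were called higher, against 1.93% of all tested genes, with a median of 0.50. Mean log2 depth differed by -0.132 between the KO groups, and their depths overlapped.

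The member called was Rps27l. It had 3491, 2229, 2244 and 1470 in KO OXA libraries, against 1226, 1265, 1111 and 1433 in KO vehicle libraries. All 4 OXA libraries lay above all 4 vehicle libraries (log2 fold change 0.84 ± 0.21, adjusted p = 0.0452). Rps27 had 4104, 2789, 2541 and 1406 in KO OXA libraries, against 1176, 1422, 1193 and 1909 in KO vehicle libraries, with overlap (log2 fold change 0.86 ± 0.25, adjusted p = 0.0963). Rpl37 had the largest KO fold change (log2 fold change 0.89 ± 0.26, adjusted p = 0.0952), followed by Rps27 and Rpl39 (log2 fold change 0.85 ± 0.27, adjusted p = 0.141), and Rpl35 was close to the threshold (log2 fold change 0.84 ± 0.23, adjusted p = 0.0698). At the lower end were Rpl3l (log2 fold change -0.41 ± 0.26, adjusted p = 0.502), Rplp2 (log2 fold change -0.21 ± 0.17, adjusted p = 0.622) and Rpl14 (log2 fold change -0.085 ± 0.13, adjusted p = 0.827).

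Single libraries decided the KO counts. Replicate 1 of KO OXA, the shallowest of its group, held the highest value of 74 members, and replicate 4, the deepest, the lowest of 68. Replicate 4 also had the most genes with a value above 0 of the 16 libraries, 23730, against 21763 in WT OXA replicate 1, the deepest library. Its part in the KO counts was not tested. Without replicate 4 of KO OXA 52 members were called higher, and without replicate 1 there were 0, with medians of 0.85 and 0.33. The share of all tested genes called in these fits is not given, so the counts describe the members only. Rps27l did not pass without any 1 of WT OXA replicates 1, 2 and 3, WT vehicle replicate 3, KO OXA replicates 1, 2 and 3, or any KO vehicle library, with adjusted p-values of 0.0526 to 0.189.

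The OXA effect differed between the genotypes for most members when depth was not in the fit. For the interaction, the KO effect minus the WT effect, 60 members were higher and 1 lower, with a median of 1.37. Of all tested genes 10.1% were called higher and 7.67% lower. With equal totals 48 members were higher and 1 lower, where 5.27% of all tested genes were higher and 20.7% lower. With the deposited values the largest were Rpl10a (log2 fold change 2.67 ± 0.41, adjusted p = 0.000185), Rpl37 (log2 fold change 2.49 ± 0.37, adjusted p = 0.000137) and Rps16 (log2 fold change 2.48 ± 0.37, adjusted p = 0.000142). Rplp2 was the member with a lower effect in KO (log2 fold change -0.72 ± 0.24, adjusted p = 0.0466), a call lost without any 1 of WT OXA replicates 1, 3 and 4, WT vehicle replicates 1 and 2, KO OXA replicates 1, 2 and 3, and KO vehicle replicates 1, 2 and 4. With log2 depth in the fit 0 members were called in either direction, with a median of 0.069, and 3 members in each direction had an unadjusted p below 0.05, where 7.25% of all tested genes were higher and 4.7% lower at that level, while 0.902% of all tested genes were called.

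Between OXA-treated mice, most members were higher in KO than in WT. This comparison uses the WT OXA libraries again. Here 53 members were higher in KO OXA than in WT OXA and 1 was lower, with a median of 0.96. Of all tested genes 14.6% were higher and 12.9% lower. With equal totals 41 members were higher and 3 lower, where 7.6% of all tested genes were higher and 30.5% lower. Rpl10a had 35351, 18463, 22982 and 9480 in KO OXA libraries, against 3537, 4299, 3384 and 5454 in WT OXA libraries. Replicate 4 of KO OXA, the lowest of its group, was still above all WT OXA libraries (log2 fold change 2.25 ± 0.29, adjusted p = 9.01e-06). Rpl19 (log2 fold change 1.95 ± 0.22, adjusted p = 2.48e-06) and Rpl37 (log2 fold change 1.96 ± 0.26, adjusted p = 1.46e-05) followed. Rplp2 had 1555, 1236, 1562 and 1528 in KO OXA libraries, against 3097, 2604, 3944 and 3082 in WT OXA libraries. Rplp2 was the 1 member lower in KO with the deposited values, with no overlap (log2 fold change -1.10 ± 0.17, adjusted p = 8.4e-05). Without KO OXA replicate 1 there were 2, Rplp2 and Rps13. With log2 depth in the fit, 3 members were higher (Rpl10a, Rpl19 and Rpl37) and 2 lower (Rplp2 and Rpl36a), where 4.81% and 2.84% of all tested genes were called, and the values were 1.32 for Rpl10a (adjusted p = 0.0287) and -1.40 for Rplp2 (adjusted p = 0.00197).

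Under vehicle no member differed between the genotypes by limma, edgeR or DESeq2, where limma called 0.0597% of all tested genes in either direction. The median was -0.44, and 77 of 78 members were lower in KO vehicle than in WT vehicle, 15 of them at an unadjusted p under 0.05, where 3.83% of all tested genes were. The smallest p-values were those of Rpl28, Rps15 and Rpl22, with Rpl28 at 3015, 3229, 3480 and 3219 in KO vehicle libraries, against 4474, 4977, 4373 and 5400 in WT vehicle libraries. These 2 groups did not overlap (log2 fold change -0.57 ± 0.15, adjusted p = 0.301). Rpl22 had the lowest fold change (-0.68). Mean log2 depth was 0.729 higher in KO vehicle, and with depth in the fit the median was 0.13.

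Other genes of translation were taken from 8 lists, chosen for their roles. Members of the ribosome with names outside the pattern were 4 tested genes, of which 1 fell and 0 rose in WT OXA. Rack1, a scaffold protein on the 40S subunit, had 2276, 2723, 2623 and 3389 in WT OXA libraries, against 4774, 6472, 6610 and 7270 in WT vehicle libraries, with no overlap (log2 fold change -1.19 ± 0.23, adjusted p = 0.000511), and 0.11 with depth in the fit. Fau and Rpl36al did not pass (-0.48, adjusted p = 0.0712, and -0.61, adjusted p = 0.0636). Of 74 tested mitochondrial ribosomal proteins, which make the separate ribosome of mitochondria, 25 fell and 0 rose in WT, with a median of -0.35, against the 16% and 18% of all tested genes, and in KO 0 were called, with a median of 0.20. The smallest p was that of Mrpl39 (log2 fold change -1.10 ± 0.18, adjusted p = 0.000136). With log2 depth in the fit, 1 mitochondrial ribosomal protein gene was called higher in WT OXA and 0 lower, with a median of 0.19. In that fit 0 genes of the list outside the name pattern were called, where 1.79% of all tested genes were higher and 2.09% lower.

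Elongation factors, which bring tRNA and move the ribosome, had 5 lower and 1 higher of 10, with a median of -0.45, and Eef1d (log2 fold change -0.88 ± 0.16, adjusted p = 0.000304) and Eef2k, the kinase that inhibits Eef2 (log2 fold change -0.78 ± 0.15, adjusted p = 0.000594), were among those that fell. Of 37 initiation factors 13 fell and 5 rose, with a median of -0.19: Eif3h fell (log2 fold change -1.11 ± 0.15, adjusted p = 1.54e-05) and Eif2b4 rose (log2 fold change 1.02 ± 0.16, adjusted p = 8.05e-05). Of 61 ribosome biogenesis genes 18 fell and 5 rose, with a median of -0.23, and Nop10, of the box H/ACA particles, fell in WT (log2 fold change -1.35 ± 0.22, adjusted p = 9.87e-05) and rose in KO (log2 fold change 0.91 ± 0.22, adjusted p = 0.0326). Of 8 other transcripts known to carry a TOP motif, 1 rose and 1 fell: Btf3 had 5349, 4984, 6206 and 7008 in WT OXA libraries, against 2657, 3227, 3145 and 3506 in WT vehicle libraries, apart and higher (log2 fold change 0.90 ± 0.20, adjusted p = 0.00185), while Naca, its partner in the nascent polypeptide complex, fell (log2 fold change -0.57 ± 0.18, adjusted p = 0.0178). Of 15 genes of translation control 2 fell (Rheb and Mtor, at -0.74 and -0.58) and 1 rose (Rptor, at 0.89). Of 20 cytosolic tRNA synthetases 5 rose and 3 fell, with a median of 0.16, Eprs among the first (log2 fold change 0.61 ± 0.12, adjusted p = 0.000789). Of all tested genes 18% were called higher and 16% lower in WT, so counts near those shares say nothing particular about a list. In KO none of these lists had a gene called but biogenesis, with Nop10 as the 1 gene. There 1.81% of all tested genes were called higher and 0.0896% lower. Few of these WT calls were left with log2 depth in the fit. With depth, 0 initiation factors (median 0.22) and 0 translation control genes were called, and 1 elongation factor was higher and 1 lower. In each of the biogenesis, TOP and tRNA synthetase lists 1 gene was higher and 0 lower. Of all tested genes 1.79% were called higher and 2.09% lower in that fit.

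Markers of several cell types were called in the WT comparison as well, and their part in the members' values was not tested. Of all tested genes 18% were called higher and 16% lower in WT, so counts near those shares, as of fibroblast markers, say nothing particular about a list. Suprabasal epithelial markers had 6 lower and 0 higher of 8 tested in WT OXA, with summed values of 449930 to 734160 against 1362100 to 2015500 in WT vehicle, and 1327100 to 2820900 in KO OXA against 1493700 to 1788400 in KO vehicle. Sbsn was listed at 0. Cell cycle genes had 9 higher and 0 lower of 12 in WT OXA, at 8168 to 13612 against 2556 to 3800, and 0 called in KO, at 3158 to 3636 against 2832 to 3755. T cell markers had 9 higher and 1 lower of 10 (1054 to 1514 against 265 to 376), macrophage and dendritic cell markers 7 higher of 10 (13862 to 14751 against 5923 to 8625), B and plasma cell markers 3 higher of 7 (1884 to 4441 against 213 to 328) and endothelial markers 7 higher of 7 (1324 to 2207 against 849.9 to 923). Eosinophil markers had 2 tested of 9, both higher (112 to 188 against 20.1 to 47.9), with Epx and Prg3 at 0 reads in all libraries. Basal epithelial markers had 2 higher and 4 lower of 8 (33824 to 49615 against 38412 to 66603), fibroblast markers 1 lower of 8 (71021 to 80246 against 69367 to 98093) and smooth muscle markers 2 lower of 6 (21713 to 37861 against 29393 to 57970). In KO the macrophage and dendritic cell markers had 7 higher of 10 as well (10225 to 24240 in KO OXA against 3662 to 5209 in KO vehicle), and the T cell markers 1, Trbc2. There 1.81% of all tested genes were called higher. Krt4, a keratin that defines the suprabasal esophageal epithelium, took 2.93% to 4.57% of reads in WT OXA and 7.41% to 11% in WT vehicle libraries, and was abundant in all 16, as in esophagus. Its WT difference did not pass the test (log2 fold change -1.75 ± 0.68, adjusted p = 0.0532). When log2 depth was in the fit, the WT calls of these lists were 6 higher for cell cycle genes, 3 lower for suprabasal and 1 lower for skeletal muscle markers, 1 higher and 1 lower for basal markers, and 1 higher each for T cell, B and plasma cell, and macrophage and dendritic cell markers. In that fit 0 eosinophil, endothelial, fibroblast and smooth muscle markers were called, where 1.79% of all tested genes were higher and 2.09% lower.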

How the data were processed

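CEL-Seq (3′ tag sequencing, NextSeq550) was run on total RNA from mouse esophagus, giving 16 libraries, 4 for each of 4 groups, grouped by their labels. The submitters' processing notes name FastQC 0.11.5, Trim Galore, cutadapt 1.10, TopHat2 2.1.0, Bowtie2 2.2.6, HTSeq 0.6.1, DESeq2 1.28.0 and GRCm38, without their order or settings. The deposited values are a normalized signal per gene: in each library they are whole multiples of the value of 1 read, at 100% of values within a tolerance of 0.1, so whole reads were recovered and gave depths of 5.61 to 27.3 M reads.

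Deposited values as log2(value + 1) were tested with limma 3.58.1 (eBayes with trend, a mean per group over all 16 libraries, two-sided) on genes that reached a value of 5 in 4 or more libraries, with Benjamini-Hochberg adjustment over them and a threshold of 0.05. Fold changes understate those of low genes. Recovered reads were tested with edgeR 4.0.16 and DESeq2 1.42.0 as alternatives. Ratios were tested with exact permutation tests (scipy 1.17.1). CEL-Seq reads may carry molecular identifiers; whether these were collapsed is not given in the sources used here. Members, gene lists and tests were chosen with earlier results of these data known. Members named in the text are the 3 with the largest, smallest and most significant change in each comparison and a list of stalk, extraribosomal and paralog genes; list genes are those with the smallest p, and some genes that these rules picked are not reported here. Promoter sequences are from RefSeq (GRCm38.p6) and gene overlaps from GENCODE M21. Comparisons share libraries, and no other per-sample columns were set aside (0).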

Additional observations from a re-analysis of the deposited data

Results flagged for a closer look

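For the members picked by the naming rule, 132 groups of 4 libraries were searched, and in 3 of them 1 library lay far from the other 3, by a rule that flags about 1 in 20 groups by chance. Over all 78 members it was 6 of 312 groups, the others being Rps3a1 in replicate 1 of WT vehicle and Rpl30 and Rpl36 in replicate 4 of KO vehicle. Rpl7l1 had 289.6 in replicate 1 of WT OXA, where the others were at 368.4 to 382.3. Rplp2 had 1236 in replicate 2 of KO OXA, where the others were at 1528 to 1562. Rps15 had 7870 in replicate 4 of KO vehicle, the shallowest library of its group, where the others were at 6597 to 6793.

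By the interaction term of the limma fit, the effect of OXA differed between KO and WT for 25 members. These are members picked by the naming rule and reported here. That rule picks some members by their change or p in this same contrast, so the count describes them and is no separate evidence. Of all 78 members 60 were higher and 1 lower, where 10.1% of all tested genes were called higher and 7.67% lower. The KO effect minus the WT effect, in log2 units, was 1.42 for Rplp0, 1.07 for Rplp1, 2.22 for Rpl11, 1.2 for Rpl13a, 1.07 for Rps27a, 1.55 for Rps4x, 2.04 for Rpl22, 1.4 for Rpl22l1 and 1.55 for Rps27. It was 0.878 for Rps27l, 1.66 for Rpl39, 2.28 for Rpl3, 1.03 for Rpl10, 1.41 for Rpl7, 2.67 for Rpl10a, 2.41 for Rpl19, 2.48 for Rps16 and 1.37 for Rpl28. It was 1.37 for Rps2, 2.49 for Rpl37, 0.894 for Rpl14, 1.41 for Rpl35, 2.09 for Rps20 and 1.66 for Rps15. For Rplp2 it was -0.72, the 1 called difference below 0. Several of these calls were lost when 1 library was left out. For Rplp1 these were WT OXA replicates 1 and 2, WT vehicle replicate 3 and KO vehicle replicate 3 (adjusted p = 0.0509 to 0.0624). For Rpl10 they were WT OXA replicates 1, 2 and 3, WT vehicle replicates 3 and 4, KO OXA replicates 1 and 3 and KO vehicle replicates 1, 2 and 3 (adjusted p = 0.0537 to 0.0723). For Rps27a they were replicates 1, 2 and 3 of WT OXA, KO OXA and KO vehicle and replicates 2, 3 and 4 of WT vehicle (adjusted p = 0.0598 to 0.0825). For Rps27l they were those 12 and KO vehicle replicate 4 (adjusted p = 0.0512 to 0.0989), and for Rplp2 11 libraries (adjusted p = 0.0526 to 0.11). With log2 depth in the fit, 0 of the 78 members had a called difference, and depth and the WT OXA group cannot be told apart.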

How the results depend on the processing

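In WT the members were lower under OXA with every setting but depth in the fit, with 36 called lower after scaling to equal totals, 40 after quantile normalization and 40 without a filter on low values, against 52. Of all tested genes 8.93% were called lower and 30.5% higher with equal totals, and 17.5% and 17.2% with quantile normalization. Scaling to equal totals moved the median of all tested genes by 0.31 in WT; relative to all tested genes the members' median was -0.88 as reported, -0.87 with equal totals and -0.504 with quantile normalization. The cause of the changes below was not tested.

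With log2 depth as a covariate, added after seeing the data, 0 members were lower in WT (median 0.486) and 3 higher in KO; the interaction had 0 higher and 0 lower (median 0.0686), KO against WT under vehicle a median of 0.128, and KO against WT under OXA 3 higher and 2 lower (median 0.171). In that fit the log2 fold change turned for 50 of the 78 members in WT and for 32 in the interaction. Among the named members with a call, it turned in WT for Rpl11 (0.0317), Rpl13a (0.0613), Rps4x (0.661), Rpl22l1 (0.355), Rps27 (0.839), Rpl39 (0.681), Rpl7 (0.693) and Rps20 (0.00493), and in the interaction for Rplp1 (-0.273), Rps27a (-0.364), Rps4x (-0.091), Rps27 (-0.108), Rps27l (-0.378), Rpl10 (-0.459) and Rpl7 (-0.143).

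Members higher in KO numbered 0 without a filter, with equal totals, with only the compared groups in the fit and with thinned reads. There were 3 with edgeR and 27 with DESeq2. Of all tested genes 1.34% were called higher in KO with equal totals, 2.23% with edgeR and 3.92% with DESeq2. No such share is given without a filter, with only the compared groups, with thinned reads or without 1 library. Counts in those settings describe the members only. The number higher in WT was 3 with equal totals, 5 with quantile normalization and 0 with only the compared groups. For the interaction 0 members were lower without a filter and with edgeR and 2 with quantile normalization. Of all tested genes 6.96% were lower with edgeR and 8.81% with quantile normalization. The members' median was 0.927 with equal totals and 0.811 with quantile normalization. For KO against WT under OXA 3 members were lower with equal totals and 5 with quantile normalization, with medians of 0.545 and 0.475. There 30.5% and 14.9% of all tested genes were lower, so the members' counts lay below those shares. Quantile normalization turned Rps6 to -0.629. Leaving out 1 library gave 0 to 52 members higher in KO, 0 to 1 higher in WT, 38 to 60 lower in WT, 0 to 1 lower in the interaction and 1 to 2 lower in KO against WT under OXA. The WT calls of Rpl7, Rps27, Rpl39 and Rpl3l were also lost without a filter (adjusted p by limma 0.059 to 0.105) and with equal totals (0.105 to 0.268), and so were the interaction calls of Rplp1, Rps27a, Rps27l and Rpl10 (0.0615 to 0.092 and 0.0949 to 0.219).

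No paired analysis was possible because the labels give the groups no shared replicate numbers. No pair of WT libraries lay at like depth, which limits the WT comparison.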
